A study of Homo sapiens with 8 samples.

Results

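The 10 genes described here, *DUSP1*, *DUSP4*, *DUSP5*, *DUSP6*, *SPRY2*, *SPRY4*, *SPRED1*, *SPRED2*, *ETV4* and *ETV5*, are outputs of ERK signalling, most of which act back on it. They were chosen by name, with earlier results of these data known. All 10 symbols matched among the 57815 gene identifiers of the expression files. RNA-seq had been performed on cells of ABC1 and HCC4006, which are human lung adenocarcinoma lines that the labels give as free of *KEAP1* and *NRF2* mutations. Each line, grown in low-glucose DMEM with fetal bovine serum, received 100 μM diethylmaleate (DEM) for 16 h or the vehicle, DMSO, with 2 libraries for each of the 4 groups. DEM is an electrophile that inhibits KEAP1, so that NRF2 accumulates, and the design asks which genes respond to such transient NRF2 activation. No group combines DEM with a loss of NRF2, so effects of DEM through NRF2 and by other routes cannot be told apart. The study's methods call the libraries biological duplicates, and nothing in the sources used here says how separate the cultures were, so p-values measure the spread between these libraries only. The labels number the libraries of each group 0 and 1, and these numbers are kept below as replicates 0 and 1.

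Expression was given as FPKM, the fragments of a gene divided by its transcript length and by the mapped fragments of the library, so that levels can be compared between genes. The depth of single libraries is unknown, and no counting interval is given. The authors' base mean, the mean over a line's 4 libraries of counts scaled to a common depth, lay between 182 and 2239 for the members. Per unit of FPKM, the base means of the 10 members in HCC4006 were 0.977 to 1.07 times those in ABC1. The 6 epithelial markers examined, *EPCAM*, *CDH1* and 4 keratins, had at least 1 FPKM in every group, and their summed level was 4974 to 5825 FPKM in vehicle-treated and 3666 to 4085 FPKM in DEM-treated ABC1 cells. In HCC4006 the sum was 4393 to 4578 FPKM with vehicle and 3443 to 3487 FPKM with DEM. Of the 8 markers of immune, endothelial and fibroblast cells, 7 were matched and 2, *CD68* and *COL1A1*, reached 1 FPKM. The sum of these 7 was 5.44 to 8.55 FPKM in ABC1 and 95.8 to 109.98 FPKM in HCC4006, where it was almost wholly *CD68*, whose base mean in HCC4006 was 5.56. *PTPRC* and *CD3E*, which define leukocytes and T cells, were at most 0.192 and 0.0577 FPKM. *NQO1*, *GCLM*, *TXNRD1* and *HMOX1*, canonical NRF2 target genes used as a check of the treatment labels, were called higher with DEM in both lines, 4 of 4 in each. *HMOX1* read 17.3 and 20.1 FPKM with vehicle against 182 and 174 FPKM with DEM in ABC1, so that replicates 0 and 1 of the DEM group were close for this gene.

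ERK, the last kinase of the RAS-RAF-MEK-ERK cascade, switches on genes whose products restrain the cascade, so their mRNA levels are widely read as a measure of pathway output. DUSP6 removes phosphate from ERK in the cytoplasm and DUSP5 in the nucleus, whereas DUSP1 and DUSP4 are nuclear phosphatases that also act on JNK and p38. The Sprouty proteins SPRY2 and SPRY4 restrain signalling from receptor tyrosine kinases to RAS and RAF, the SPRED proteins bring the RAS GTPase-activating protein neurofibromin to the membrane, and ETV4 and ETV5 are transcription factors of the PEA3 group of the ETS family. In bulk RNA, fewer cells that express a gene and less RNA of that gene per cell cannot be told apart.

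Promoter sequences are shown for *DUSP1* and *DUSP6*, phosphatase genes that moved in opposite directions with DEM in HCC4006 cells. They are the 250 bases before each transcription start from RefSeq (GRCh38.p14, minus strand of the genome for both genes, written 5′ to 3′ along the gene). The table used held such a window for 6 of the 10 members. *DUSP4*, *DUSP5*, *ETV4* and *ETV5* had no entry. Capitals mark matches, on either strand, to a cyclic AMP response element core (TGACGT) or an antioxidant response element core (TGACNNNGC).
*DUSP1*, chr5:172771196-172771445: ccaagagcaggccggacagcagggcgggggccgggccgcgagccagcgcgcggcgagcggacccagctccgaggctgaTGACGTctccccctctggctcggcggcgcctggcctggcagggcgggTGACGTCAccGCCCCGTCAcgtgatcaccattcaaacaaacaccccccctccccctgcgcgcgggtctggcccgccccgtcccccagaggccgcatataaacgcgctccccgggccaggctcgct
*DUSP6*, chr12:89352502-89352751: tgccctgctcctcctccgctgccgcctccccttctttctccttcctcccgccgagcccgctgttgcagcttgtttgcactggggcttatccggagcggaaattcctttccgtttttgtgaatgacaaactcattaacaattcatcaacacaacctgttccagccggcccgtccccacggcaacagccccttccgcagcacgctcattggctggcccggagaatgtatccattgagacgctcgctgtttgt
The *DUSP1* window held 3 matches to TGACGT, starting at positions -172, -125 and -123 from the transcription start, of which the last pair is 1 palindrome read on both strands. It also held 1 match to TGACNNNGC, at -115. The *DUSP6* window held none of these letters and no match to CCGGAA, a strict form of the ETS site. It also held no AP-1 site (TGANTCA) and no CArG box, the element bound by serum response factor. Shorter ETS letters such as GGAA, which this window does hold, were not counted. Among 35116 windows of the same length in the table, 7.10% held TGACGT, 10.9% TGACNNNGC, 14.5% CCGGAA, 6.57% TGANTCA and 1.16% a CArG box. The windows of *SPRY4* and *SPRY2* held 1 match each, *SPRY4* to TGACNNNGC at -228 and *SPRY2*, in 1 of its 3 windows, to CCGGAA at -142.

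All 10 members were expressed in both lines, and *DUSP6* set the lines apart more than any other member. With vehicle, *DUSP6* (ENSG00000139318.7, GRCh37 chr12:89741012-89746278) read 5.62 and 7.47 FPKM in ABC1 and 178 and 167 FPKM in HCC4006. The HCC4006 libraries lay far above the ABC1 libraries, a 23.2-fold difference on the log2(FPKM + 1) scale (log2 4.53, standard error 0.14, limma with Benjamini-Hochberg adjustment, adjusted p = 1.65e-05). Of the 10 members, 6 were called higher and 3 lower in HCC4006 than in ABC1 with vehicle. Of all 13747 genes tested, 67.7% were called in this comparison, 37.3% higher and 30.4% lower, so a call between the lines was common. The median log2 difference of the members was 0.76, beside 0.07 over all genes tested. Line, culture history and any difference in handling cannot be told apart here.

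*DUSP4* was also called higher in HCC4006, with 10.9 and 9.01 FPKM in ABC1 against 24.9 and 24.5 FPKM in HCC4006 (log2 difference 1.24, standard error 0.12, limma adjusted p = 0.000553). *SPRY4*, the member with the lowest level in each line's vehicle group, was 1.53 and 2.22 FPKM in ABC1 and 8.36 and 7.48 FPKM in HCC4006 (log2 difference 1.64, standard error 0.16, limma adjusted p = 0.000576). For these genes, as for *DUSP6*, the lines did not overlap, and each was called whichever vehicle library was left out. *SPRED1* (3.74 and 6.90 FPKM against 15.2 and 16.8 FPKM), *DUSP5* (5.26 and 4.61 FPKM against 9.23 and 8.64 FPKM) and *ETV5* (9.59 and 12.0 FPKM against 19.8 and 18.5 FPKM) were also called higher in HCC4006, by 1.47, 0.74 and 0.78 on the log2 scale. In contrast, *DUSP1*, *SPRED2* and *ETV4* were called lower in HCC4006 than in ABC1. *ETV4* read 14.9 and 24.8 FPKM in ABC1 and 9.87 and 8.02 FPKM in HCC4006, a log2 difference of -1.03 (standard error 0.25, limma adjusted p = 0.015). The log2 differences of *DUSP1* and *SPRED2* were -0.53 and -0.60. These 6 calls were lost when either HCC4006 vehicle library was left out, whereas each held without either ABC1 vehicle library. Without a minimum FPKM, the calls of *SPRED1* (limma adjusted p = 0.0643) and *ETV4* (limma adjusted p = 0.123) between the lines were also lost. *SPRY2* was not called between the lines, with 8.43 and 7.57 FPKM in ABC1 and 8.99 and 9.82 FPKM in HCC4006 (log2 difference 0.21, 95% confidence interval -0.09 to 0.50, limma adjusted p = 0.164).

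The order of the members by level differed between the lines. In vehicle-treated ABC1 cells *SPRED2* stood first with 40.8 ± 4.14 FPKM (SD, n = 2), followed by *ETV4* (19.9 ± 6.99), *DUSP1* (14.3 ± 0.363), *ETV5* (10.8 ± 1.72), *DUSP4* (9.95 ± 1.34), *SPRY2* (8.001 ± 0.605), *DUSP6* (6.54 ± 1.31), *SPRED1* (5.32 ± 2.23), *DUSP5* (4.94 ± 0.458) and *SPRY4* (1.88 ± 0.488). Neighbours whose libraries overlapped, and whose order is therefore not set, were *ETV5* and *DUSP4*, *DUSP6* and *SPRED1*, and *SPRED1* and *DUSP5*. In vehicle-treated HCC4006 cells *DUSP6* stood first with 172 ± 7.87 FPKM (SD, n = 2), well above *SPRED2* (26.6 ± 0.869), *DUSP4* (24.7 ± 0.319), *ETV5* (19.1 ± 0.943) and *SPRED1* (16.0 ± 1.11). *DUSP1* (9.56 ± 0.417), *SPRY2* (9.40 ± 0.584), *ETV4* (8.94 ± 1.31) and *DUSP5* (8.94 ± 0.422) overlapped from each to the next, and *SPRY4* (7.92 ± 0.625) was lowest. *DUSP6* thus ranked seventh by mean level in ABC1 and first in HCC4006.

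**Figure D1:**
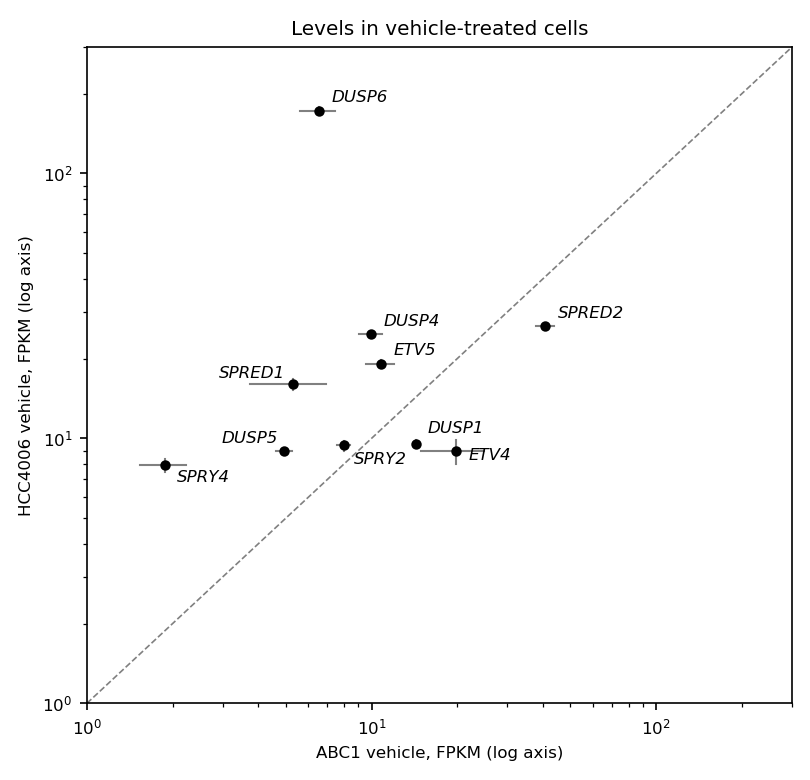
Mean FPKM of the 10 members in vehicle-treated ABC1 (horizontal, log axis) and HCC4006 cells (vertical, log axis), with grey lines from the lower to the higher of the 2 libraries and a dashed line of equal level. *DUSP6*, at 6.54 FPKM in ABC1 and 172 FPKM in HCC4006, lies farthest above the dashed line, and *SPRED2*, *DUSP1* and *ETV4* lie below it.

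In HCC4006 cells DEM moved the phosphatase genes in opposite directions. *DUSP6* fell from 178 and 167 FPKM with vehicle to 60.7 and 57.6 FPKM with DEM. Both DEM libraries lay far below both vehicle libraries, at 0.347 times their level on the log2(FPKM + 1) scale (log2 fold change -1.53, standard error 0.07, limma adjusted p = 0.000524). Even so, *DUSP6* was still the member with the highest level in DEM-treated HCC4006 cells. *DUSP5* (ENSG00000138166.5, chr10:112257665-112271291), whose product is the nuclear ERK phosphatase, rose from 9.23 and 8.64 FPKM to 20.2 and 22.5 FPKM. The groups did not overlap, and the fold on the log2(FPKM + 1) scale was 2.25 (log2 fold change 1.17, standard error 0.10, limma adjusted p = 0.00266). *DUSP1* (ENSG00000120129.5, chr5:172195099-172198198), known as an immediate early gene of growth factor and stress signals, rose from 9.27 and 9.86 FPKM to 18.4 and 18.2 FPKM. This was 1.83-fold on the log2(FPKM + 1) scale (log2 fold change 0.87, standard error 0.09, limma adjusted p = 0.00451). With DEM, *DUSP1* in HCC4006 was above its level in every ABC1 library. *DUSP4*, the close relative of *DUSP1*, read 24.9 and 24.5 FPKM with vehicle and 23.2 and 22.5 FPKM with DEM. These values did not overlap, but their difference was small and was not called (log2 fold change -0.11, 95% confidence interval -0.31 to 0.09, limma adjusted p = 0.371).

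Of the 10 members, 3 were called higher and 2 lower with DEM in HCC4006, and 19.1% of the 13542 genes tested were called, 8.45% higher and 10.7% lower. The remaining 5 members had limma adjusted p-values between 0.340 and 0.522. The median log2 fold change was -0.00 over the members and -0.03 over all genes tested. The calls of *DUSP1*, *DUSP5* and *DUSP6* held whichever HCC4006 library was left out. In a model of all 8 libraries, where the spread of ABC1 entered the estimate, the adjusted p of *DUSP6* was 0.0502, that of *SPRED1* 0.217 and that of *ETV5* 0.304. Without a minimum FPKM the adjusted p was 0.0557 for *DUSP5*, 0.129 for *SPRED1* and 0.106 for *ETV5*. Among the epithelial markers, *KRT7*, *KRT8* and *KRT18* were called lower with DEM in HCC4006 (log2 fold changes -0.51, -0.46 and -0.40), and their part in the members' results was not tested.

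Among the Sprouty and SPRED genes in HCC4006, *SPRED1* was the only member called. *SPRED1* (ENSG00000166068.8, chr15:38545037-38649450) read 15.2 and 16.8 FPKM with vehicle and 11.1 and 11.8 FPKM with DEM. The groups did not overlap, and it was called lower (log2 fold change -0.44, standard error 0.10, limma adjusted p = 0.0333). This call was lost without any single HCC4006 library, with adjusted p-values from 0.0842 to 0.168. *SPRED2* was 27.2 and 26.0 FPKM with vehicle and 28.5 and 28.8 FPKM with DEM, a log2 fold change of 0.11 (95% confidence interval -0.09 to 0.30). *SPRY2* was 8.99 and 9.82 FPKM with vehicle and 8.70 and 7.97 FPKM with DEM, and its log2 fold change was -0.16 (95% confidence interval -0.43 to 0.11). Its libraries did not overlap either, with both DEM values lower. *SPRY4* was 8.36 and 7.48 FPKM with vehicle and 10.5 and 8.21 FPKM with DEM, so that the groups overlapped (log2 fold change 0.21, 95% confidence interval -0.14 to 0.56). For *SPRED2*, *SPRY2* and *SPRY4* the intervals leave changes of either sign.

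The PEA3 group genes behaved unlike each other in HCC4006. *ETV5* (ENSG00000244405.3, chr3:185764103-185828107) rose from 19.8 and 18.5 FPKM to 27.0 and 25.4 FPKM with no overlap between groups, and it was called higher (log2 fold change 0.44, standard error 0.09, limma adjusted p = 0.0251). As for *SPRED1*, the call was lost without any single library, with adjusted p-values from 0.0664 to 0.131. The annotation of *ETV5* overlaps that of *DGKG*, on the same strand, over 4651 bases, and *DGKG* read 3.69 and 5.61 FPKM with vehicle and 11.3 and 11.5 FPKM with DEM in HCC4006, and at most 0.0115 FPKM in ABC1. Whether reads of *DGKG* entered the value of *ETV5* was not tested. *ETV4* was 9.87 and 8.02 FPKM with vehicle and 9.57 and 5.91 FPKM with DEM, so the groups overlapped and the log2 fold change of -0.21 was not called (standard error 0.22, limma adjusted p = 0.522). *ETV4* lies within the annotation of *DHX8* on the opposite strand, which was at 10.5 to 16.1 FPKM in all 8 libraries, and the strand setting of the authors' counting is not given in the sources used here.

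Across the 10 members in HCC4006, both DEM libraries lay above both vehicle libraries for 4 (*DUSP1*, *DUSP5*, *SPRED2* and *ETV5*) and below them for another 4 (*DUSP4*, *DUSP6*, *SPRY2* and *SPRED1*). Of all genes tested, 29.3% separated upwards and 35.3% downwards in the same way. The libraries of *SPRY4* and *ETV4* overlapped.

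**Figure D2:**
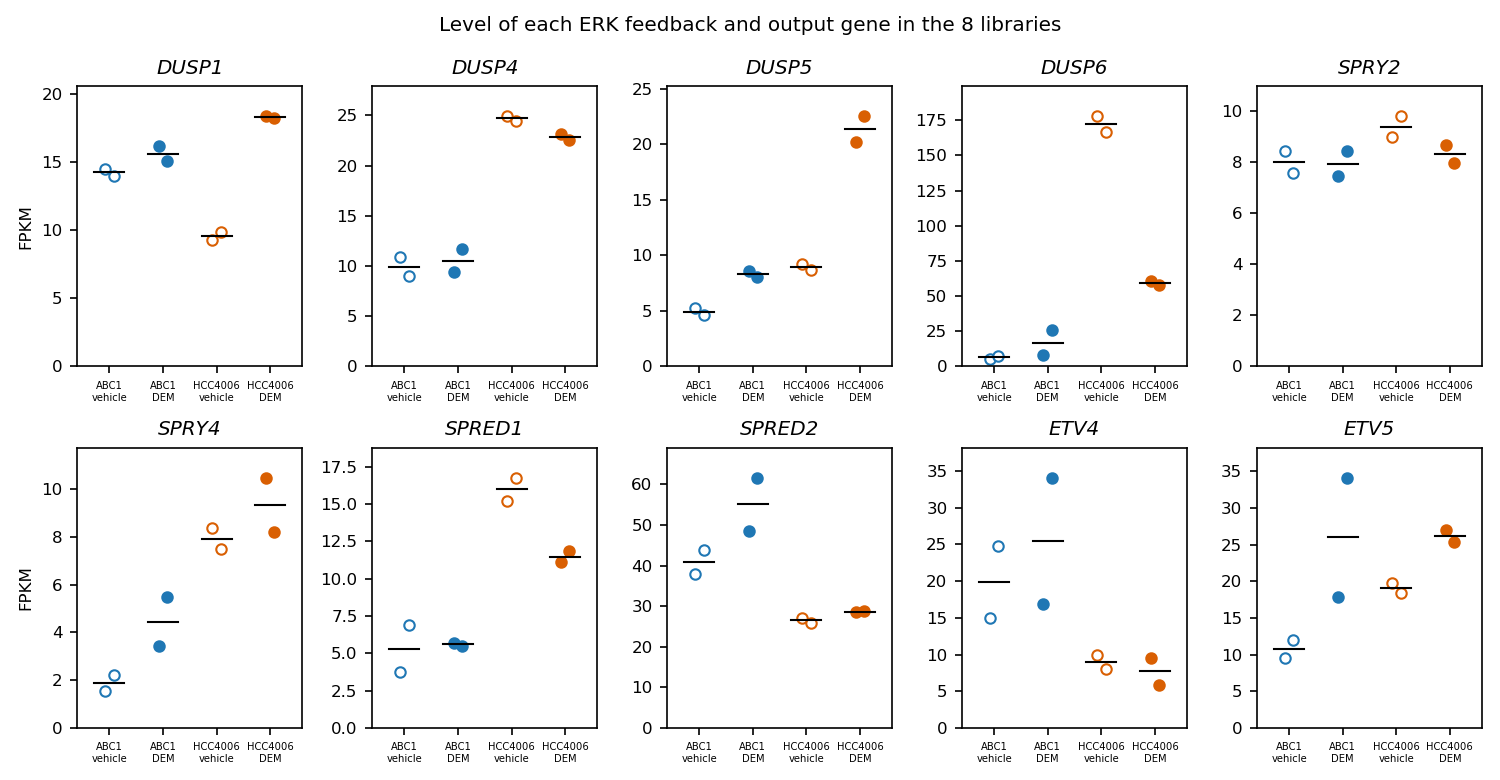
FPKM of each member in the 8 libraries, with each panel on its own axis from 0, open circles for vehicle, filled circles for DEM, and bars at the mean of the 2 libraries of a group (blue ABC1, orange HCC4006). *DUSP6* drops from about 172 to 59.2 FPKM in HCC4006, *DUSP1* and *DUSP5* climb there, and in ABC1 the DEM libraries of *DUSP6*, *ETV4* and *ETV5* stand wide apart.

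In ABC1 cells none of the 10 members was called with DEM by limma at an adjusted p under 0.05, with 1.20% of 12635 genes called (0.768% higher and 0.435% lower). At an unadjusted p under 0.05, 4 members passed, *DUSP5*, *SPRY4*, *SPRED2* and *ETV5*, as did 2771 of all genes tested, and all 4 had log2 fold changes above 0. In all, 9 of the 10 log2 fold changes of the members were above 0, as were 47.7% of all genes tested, and the median was 0.36 over the members and -0.02 over all genes. Because the members were chosen with earlier results of these data known, this comparison is descriptive only. In a model of all 8 libraries *DUSP5*, *SPRY4* and *ETV5* were called higher in ABC1, where 1567 genes were called in all. With replicate number added as a block, 5 members were called higher, *DUSP5*, *DUSP6*, *SPRY4*, *SPRED2* and *ETV5*, among 2348 genes called. That none was called thus depends on the model, and the labels do not say that the numbers mark a shared batch. Over all genes tested the median standard error was 0.17 in ABC1 and 0.12 in HCC4006.

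*DUSP5* came nearest to a call in ABC1. It read 5.26 and 4.61 FPKM with vehicle and 8.61 and 8.01 FPKM with DEM. Both DEM libraries were higher (log2 fold change 0.65, standard error 0.15, limma adjusted p = 0.0933). *ETV5* was 9.59 and 12.0 FPKM with vehicle and 17.9 and 34.2 FPKM with DEM. The groups did not overlap, but replicate 1 with DEM was far above replicate 0, and the log2 fold change was 1.13 (standard error 0.30, limma adjusted p = 0.121). *SPRY4* was 1.53 and 2.22 FPKM with vehicle and 3.43 and 5.47 FPKM with DEM, again with no overlap (log2 fold change 0.91, standard error 0.25, limma adjusted p = 0.129). *SPRED2* was 37.9 and 43.8 FPKM with vehicle and 48.5 and 61.7 FPKM with DEM (log2 fold change 0.42, standard error 0.16, limma adjusted p = 0.217).

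For *DUSP6* in ABC1, 1 library carried most of the difference. It read 5.62 and 7.47 FPKM with vehicle and 8.36 FPKM in DEM replicate 0, but 25.6 FPKM in DEM replicate 1. Although both DEM values were above both vehicle values, the log2 fold change of 1.07 had a 95% confidence interval of -0.09 to 2.24 (limma adjusted p = 0.257). Without DEM replicate 1 it was 0.32, and without DEM replicate 0 it was 1.83. For *ETV4* replicate 1 was the higher library in each group, with 14.9 and 24.8 FPKM with vehicle and 16.9 and 34.1 FPKM with DEM, and the groups overlapped (log2 fold change 0.31, 95% confidence interval -0.61 to 1.22). Replicate 1 was likewise the higher library in each ABC1 group for *DUSP6*, *ETV5*, *SPRY4* and *SPRED2*. Replicate 0 was the higher in each for *DUSP1* and *DUSP5*, and the order differed between the groups for *DUSP4*, *SPRY2* and *SPRED1*. Without DEM replicate 1 the log2 fold change of *ETV5* was 0.69, that of *SPRY4* 0.63, that of *SPRED2* 0.25 and that of *ETV4* -0.18. That of *ETV5* without DEM replicate 0 was 1.58.

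The other 4 members had log2 fold changes between -0.01 and 0.12 with DEM in ABC1. *DUSP1* was 14.5 and 14.0 FPKM with vehicle and 16.2 and 15.1 FPKM with DEM, without overlap and with a log2 fold change of 0.12 (95% confidence interval -0.19 to 0.43). *DUSP4* was 10.9 and 9.01 FPKM with vehicle and 9.40 and 11.7 FPKM with DEM, and *SPRY2* was 8.43 and 7.57 FPKM with vehicle and 7.45 and 8.46 FPKM with DEM. The libraries of both genes overlapped, and their log2 fold changes were 0.07 and -0.01. For *SPRED1* the vehicle libraries, at 3.74 and 6.90 FPKM, enclosed the DEM libraries, at 5.68 and 5.50 FPKM. In ABC1, 6 members had both DEM libraries above both vehicle libraries and 0 had both below. Of all genes tested, 25.5% separated upwards and 28.2% downwards.

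**Figure D3:**
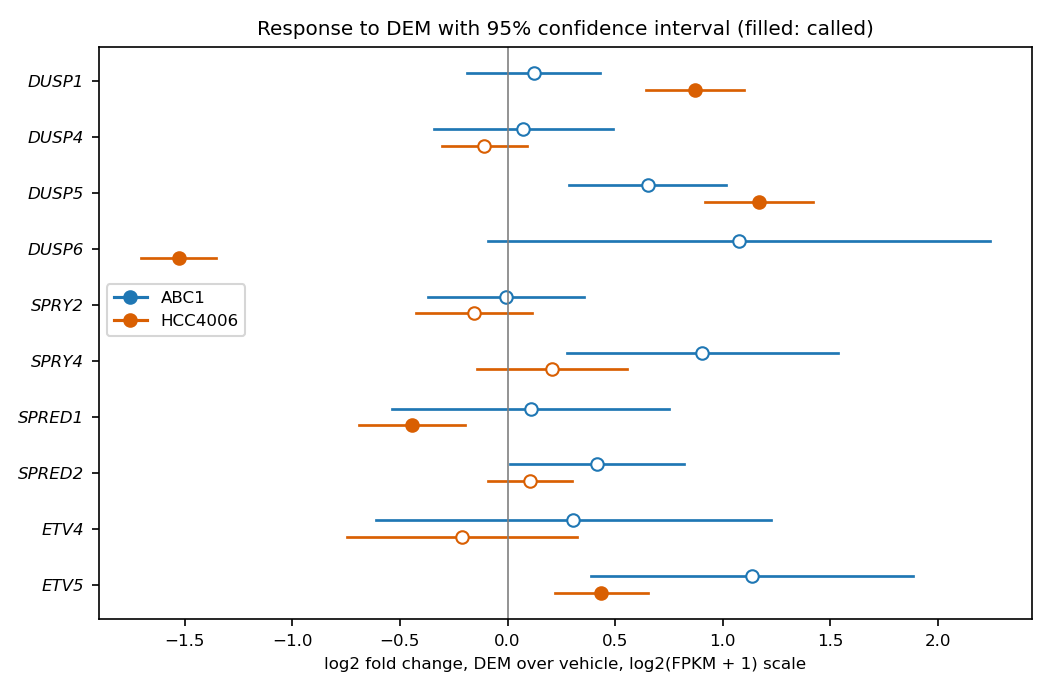
Log2 fold change of DEM over vehicle on the log2(FPKM + 1) scale for each member, with its 95% confidence interval from limma, in ABC1 (blue) and HCC4006 (orange), filled where called at an adjusted p under 0.05. *DUSP6* lies at 1.07 in ABC1 with a wide interval and at -1.53 in HCC4006 with a narrow one, and *DUSP1* and *DUSP5* are called higher in HCC4006.

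Whether the response to DEM differed between the lines was tested as an interaction over all 8 libraries, and none of the 10 members was called by limma at an adjusted p under 0.05. Of 13682 genes tested, 0.636% were called (0.307% higher and 0.329% lower) and 2068 had an unadjusted p under 0.05, as did 3 members, *DUSP1*, *DUSP5* and *DUSP6*. For *DUSP6* the response in HCC4006 minus that in ABC1 was -2.60 on the log2 scale (95% confidence interval -3.96 to -1.24, limma adjusted p = 0.106). Its DEM libraries were all higher than vehicle in ABC1 and all lower in HCC4006. The difference was -3.35 without ABC1 DEM replicate 0 and -1.85 without ABC1 DEM replicate 1. Each of these fits drops the spread between the ABC1 DEM libraries, so whether it passes cannot decide the question. The difference was not called without any of the other 6 libraries. *DUSP1* had a difference of 0.75 (95% confidence interval 0.44 to 1.06, limma adjusted p = 0.0668), and it was called when no minimum FPKM was set (adjusted p = 0.0217). The difference of *DUSP5*, whose log2 fold changes were above 0 in each line, was 0.52 (95% confidence interval 0.14 to 0.89, limma adjusted p = 0.196). The other 7 members had differences between -0.70 and -0.15. The log2 fold changes of the lines had opposite signs for 4 of 10 members (40.0%), *DUSP4*, *DUSP6*, *SPRED1* and *ETV4*, and for 29.7% of the 11539 genes tested in both lines.

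The other genes of the pathway were taken from lists of relatives and neighbours of the members, 48 genes in all. In ABC1, 42 of them were tested, and limma called none at an adjusted p under 0.05, with 12 at an unadjusted p under 0.05, beside 1.20% of all 12635 genes called and 2771 at an unadjusted p under 0.05. In HCC4006, 45 were tested, of which 8 were called higher and 5 lower, beside 8.45% and 10.7% of all genes tested there. Only *ETV1*, *EPHA4*, *FOSL1* and *ERRFI1* among these 13 kept their call whichever HCC4006 library was left out.

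Among relatives of the members in HCC4006, 1 was called higher and 3 lower. Of the other MAP kinase phosphatases, 1 of 5 tested was called higher, *DUSP16*, which acts on JNK and p38 (5.35 and 5.17 FPKM with vehicle, 7.44 and 8.11 FPKM with DEM), and 1 lower, *DUSP9*, a cytoplasmic ERK phosphatase like *DUSP6* (2.41 and 2.56 FPKM, then 1.29 and 1.26 FPKM). *SPRY1*, the only other Sprouty or SPRED gene that passed the minimum, fell from 4.64 and 5.56 FPKM to 1.79 and 2.55 FPKM (log2 fold change -0.95, standard error 0.18, limma adjusted p = 0.0201). In ABC1, where it was far higher, *SPRY1* read 48.7 and 39.3 FPKM with vehicle and 22.5 and 24.5 FPKM with DEM, a log2 fold change of -0.87 that was not called (limma adjusted p = 0.0639). The DEM libraries of *SPRY1* thus lay below the vehicle libraries in both lines, unlike those of *SPRY2* and *SPRY4* in ABC1. *ETV1*, the third PEA3 factor, fell in HCC4006 from 31.7 and 26.0 FPKM to 11.8 and 13.6 FPKM (log2 fold change -1.12, standard error 0.13, limma adjusted p = 0.00533), and it was at most 0.320 FPKM in ABC1. *ETV1* therefore moved with *DUSP6* and against *ETV5* in HCC4006. None of the other 6 ETS genes tested there was called.

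Of 9 further genes known as ERK outputs, 4 were called higher and 1 lower with DEM in HCC4006. *FOSL1*, an AP-1 subunit, rose from 87.1 and 81.8 FPKM to 188 and 153 FPKM (log2 fold change 0.999, standard error 0.11, limma adjusted p = 0.00456). *ERRFI1*, a feedback inhibitor of EGF receptor signalling, rose from 69.7 and 72.1 FPKM to 125 and 128 FPKM, and *EGR1*, an immediate early transcription factor, from 21.8 and 20.5 FPKM to 43.0 and 33.5 FPKM. *MYC* rose from 25.2 and 22.2 FPKM to 40.1 and 36.2 FPKM. The gene that fell was *EPHA4*, an ephrin receptor, from 12.0 and 12.9 FPKM to 6.47 and 5.86 FPKM. *DUSP6* and *EPHA4* thus fell in the line and treatment in which 4 other ERK output genes rose. Among members and their relatives, *SPRED1*, *DUSP9*, *SPRY1* and *ETV1* were also called lower there, and *DUSP1*, *DUSP5*, *ETV5* and *DUSP16* higher. In ABC1 *ERRFI1* was 82.1 and 81.1 FPKM with vehicle and 128 and 128 FPKM with DEM, and *MYC* was 32.7 and 27.7 FPKM with vehicle and 46.6 and 49.2 FPKM with DEM. Neither passed there, with log2 fold changes of 0.65 for each and limma adjusted p-values of 0.0666 and 0.0802. *FOSL1*, at 0.236 and 0.188 FPKM with vehicle in ABC1, reached 1.28 and 2.48 FPKM with DEM (limma adjusted p = 0.101).

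Of 11 adaptor, RAS and GTPase-activating protein genes tested in HCC4006, *SOS1* and *SOS2*, which encode RAS exchange factors, were called higher, by 0.60 and 0.41 on the log2 scale. Of 8 RAF, MEK, ERK and KSR genes, *BRAF* was called higher (7.90 and 7.81 FPKM, then 11.3 and 10.7 FPKM) and *ARAF* lower (48.9 and 48.0 FPKM, then 31.4 and 33.3 FPKM). *ARAF* read 21.3 and 24.5 FPKM with vehicle and 13.8 and 16.3 FPKM with DEM in ABC1, where it was not called (log2 fold change -0.58, limma adjusted p = 0.114). None of the 4 JNK and p38 genes was called in either line. Phosphorylation of the kinases was not measured here.

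The genes with the most similar profiles were sought for *DUSP6*, *SPRY4* and *ETV5* among 13381 genes, as the smallest root mean square difference of mean-centred log2(FPKM + 1) values over the 8 libraries. For *DUSP6* these were *FHL2* (0.49), *ADORA1* (0.53) and *TGFB2-AS1* (0.54). These differences are larger than those of *SPRY4* and *ETV5*, but *DUSP6* itself also varied more. Its SD over the 8 libraries on this scale was 1.91, against 0.799 for *SPRY4* and 0.573 for *ETV5*. *FHL2*, which encodes a LIM domain protein, read 15.6 and 13.8 FPKM with vehicle and 24.4 and 25.9 FPKM with DEM in ABC1, and 204 and 206 FPKM with vehicle and 111 and 116 FPKM with DEM in HCC4006. It was thus higher in the DEM libraries in ABC1, lower in them in HCC4006 and highest in vehicle-treated HCC4006 cells, as was *DUSP6*. *ADORA1* and *TGFB2-AS1* were also lower with DEM in HCC4006, but in ABC1 they were at most 0.0858 and 0.0529 FPKM. For *SPRY4* the nearest were *FAM43A* (0.11), *WASF2* (0.15) and *PAAF1* (0.16), and for *ETV5* they were *GARS1*, *ATG4D* and *CREB1* (0.17 each). The 8 points of each profile share 4 groups.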

How the data were processed

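The authors deposited FPKM values per gene and library, made per the labels from poly(A) strand-specific libraries. The submitters' processing notes name bcl2fastq 2.15.0, cutadapt 1.15, STAR 2.5.3a, SAMtools, Cuffnorm, HTSeq, DESeq2 and R 3.2.0 with hg19 (GRCh37.p13), whereas the study's methods name TopHat and Cufflinks. Tables of the authors' own comparison were also deposited, of which only the base mean, a normalised signal over a line's libraries, was used, as a measure of depth. FPKM scales each library to its total, so a change is relative to the rest of the library. FPKM values were tested on log2(FPKM + 1) with limma 3.58.1 (R 4.3.3, mean-variance trend). Genes below an average of 1 FPKM over the fitted libraries were left out, with Benjamini-Hochberg adjustment over all genes and a call at an adjusted p under 0.05 with no minimum fold. Fold changes of low genes are understated on this scale. The smallest p that exact permutation (two-sided) allows for groups of 2 is 0.333. The methods were tested on simulated data. The members and gene lists were chosen with earlier results of these data known. The genes named were the members, the genes of the other lists called in either line, the treatment and cell type markers, and the 3 nearest profiles of *DUSP6*, *SPRY4* and *ETV5*. Other genes given for ABC1 are the same genes. A gene of these lists is counted but not reported by itself here. Positions are from GENCODE on GRCh37, and 55534 identifiers had a symbol. Alternatives were another pseudocount, minimum, trend, scaling, model and replicate block, and each library left out.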

Additional observations from a re-analysis of the deposited data

Results flagged for a closer look

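The response of *DUSP6* to DEM differed in direction between the lines in every library. In ABC1 the DEM libraries (8.36 and 25.6 FPKM) were above the vehicle libraries (5.62 and 7.47 FPKM), and in HCC4006 they (60.7 and 57.6 FPKM) were below them (178 and 167 FPKM). The difference of the log2 fold changes, HCC4006 minus ABC1, was -2.60, and the limma test of this difference did not pass after adjustment (adjusted p = 0.106). It was between -3.35 and -1.85 when any single library was left out. A fit without either ABC1 DEM library drops the spread between them, so whether it passes cannot decide the question.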

How the results depend on the processing

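In ABC1 the count of genes called, 152, depended most on the settings. It was 0 without a minimum FPKM, 231 with a minimum of 5 FPKM, 33 without a mean-variance trend, 251 with median-of-ratios scaling, 242 with equal FPKM sums (chosen after seeing the data), 1567 in a model of all 8 libraries and 18 to 69 without a single library. Members called higher there were 3 in the model of all 8 libraries (*DUSP5*, *SPRY4* and *ETV5*) and 0 to 2 without a single library. Replicate numbers were not said to mark a shared batch, so they were not taken as pairs. Deviations from the group means correlated across genes with r = 0.258 in ABC1, 0.0544 in HCC4006 and 0.0356 between the vehicle groups. Whether the numbers mark an effect shared by vehicle and DEM libraries in ABC1 was not tested. A replicate block gave 2348 genes in ABC1, with 5 members called higher (*DUSP5*, *DUSP6*, *SPRY4*, *SPRED2* and *ETV5*), and 3 genes for the difference between the lines, with no other count of members moved. In HCC4006, 370 genes were called without a minimum FPKM, with 1 member higher and 1 lower, and 634 to 1028 without a single library, with 1 member lower in each case. Members called lower there were 1 without a mean-variance trend and 0 in the model of all 8 libraries. For the difference between the lines, the count of genes was 20 with a pseudocount of 0.1, 403 without a minimum FPKM, where 1 member (*DUSP1*) was higher, and 4 to 41 without a single library, with 0 to 1 members lower. Between the vehicle groups, 5 members were called higher and 2 lower without a minimum FPKM, and 5572 to 9005 genes, 3 to 6 members higher and 0 to 3 lower were called without a single library. Log2 fold changes not called turned sign in ABC1 for *SPRY2* with median-of-ratios scaling (0.0052). Without a single library of ABC1 the log2 fold changes ranged from -0.090 to 0.074 for *SPRY2*, -0.069 to 0.22 for *DUSP4*, -0.26 to 0.48 for *SPRED1* and -0.18 to 0.79 for *ETV4*, and without a single library of HCC4006 that of *ETV4* ranged from -0.52 to 0.095. Fits without a library leave an arm with 1 library, which is assumed to vary like the others. Counts of genes tested changed with the minimum, and otherwise the cause of these changes was not tested. Without library counts, what depth limits could not be assessed beyond the base means.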
